A study of Mus musculus with 24 samples.

Results

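Most genes make several transcripts, which differ in where they start, which exons they keep and where they end. The share of each transcript in a gene's output can differ between conditions while the gene's total stays the same, and a summed gene level does not show it. The genes described here are the 200 whose transcript shares differed most between 4 groups of mouse aortas, by genotype and dietary magnesium. They were chosen on these measured shares, so the differences between groups that chose them are given as a description.

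A gene entered if it had 2 or more transcripts in the deposited tables and a summed level of at least 5 TPM (a level per transcript length, scaled to the same total in each mouse) in all 24 mice. The share of a transcript was its TPM over the summed TPM of its gene. The median share was taken in each group, and the value of a gene was the largest difference between 2 group medians over all of its transcripts. Values and differences are in percentage points of the gene's TPM. Of 41012 genes in the tables, 14925 had 2 or more transcripts and 5615 passed both conditions. The 200 of highest value are called members below, ranked from 1 to 200, and the transcript that gives the value is the shifting transcript. Its partner is the transcript of the same gene whose median share moved most the other way between the same 2 groups.

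Klotho is the coreceptor through which the bone hormone FGF23 acts on the kidney, and mice that lack it retain phosphate, age early and calcify their arteries. Magnesium is known to slow the formation of calcium phosphate crystals. The arterial wall is rich in vascular smooth muscle cells, whose contractile and matrix genes include well-known cases of alternative splicing. The RNA came from thoracic aortas of C57/BL6 mice aged 8 weeks, wild-type (WT) or Klotho-/- (KO), fed either 0.05% (minimal) or 0.48% (high) magnesium by weight from birth. Each of the 4 groups had 6 mice, and the labels name no tissue-specific deletion; WT on minimal magnesium was the study's control. RNA was not treated with DNase. The libraries held between 9947455 and 18926802 assigned reads.

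The tables name genes by C57BL/6NJ strain identifiers, and 0 of these matched the reference tables of symbols, so no member could be tied to a gene symbol, a known function or a sequence. The tissue could not be checked against marker genes for the same reason, nor could the members be set against contractile, matrix or splicing-factor genes. Members are therefore given by rank, and transcripts by their length in bases. In bulk tissue a shift between cell types that use different transcripts cannot be told apart from a shift within cells. Mouse numbers fall into a series from 1 to 18 and a series from 20 to 40. The labels do not say what the series are, and the groups are spread unevenly over them. Mice 1 to 18 include 3 WT on minimal, 2 WT on high, 1 KO on minimal and 4 KO on high magnesium, and mice 20 to 40 include 3, 4, 5 and 2. Their libraries held 9947455 to 13244722 and 13216120 to 18926802 reads, so group, series and depth are in part confounded and cannot be wholly told apart. Mice 4 (labelled WT) and 20 (labelled KO), both on minimal magnesium, often lay nearer the other genotype, as shown for the members below. Whether their labels are right could not be settled here. Counts over the members that turn on minimal magnesium are given with and without them; the medians and ranges of single members include them.

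Values ranged from 59.6 points at rank 1 through 43.1 at rank 10, 32.7 at rank 50 and 28.1 at rank 100 to 24.1 at rank 200. The last members inside the limit had values of 24.13, 24.11 and 24.10 points, and the first genes outside it had 24.02, 24.02 and 23.90. There was no step between them. The median value was 28.1 points over the members and 8.19 over the other 5415 kept genes. In 116 members the transcript with the largest median share was not the same in all 4 groups, which was so in 917 of the other genes.

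**Figure D1:**
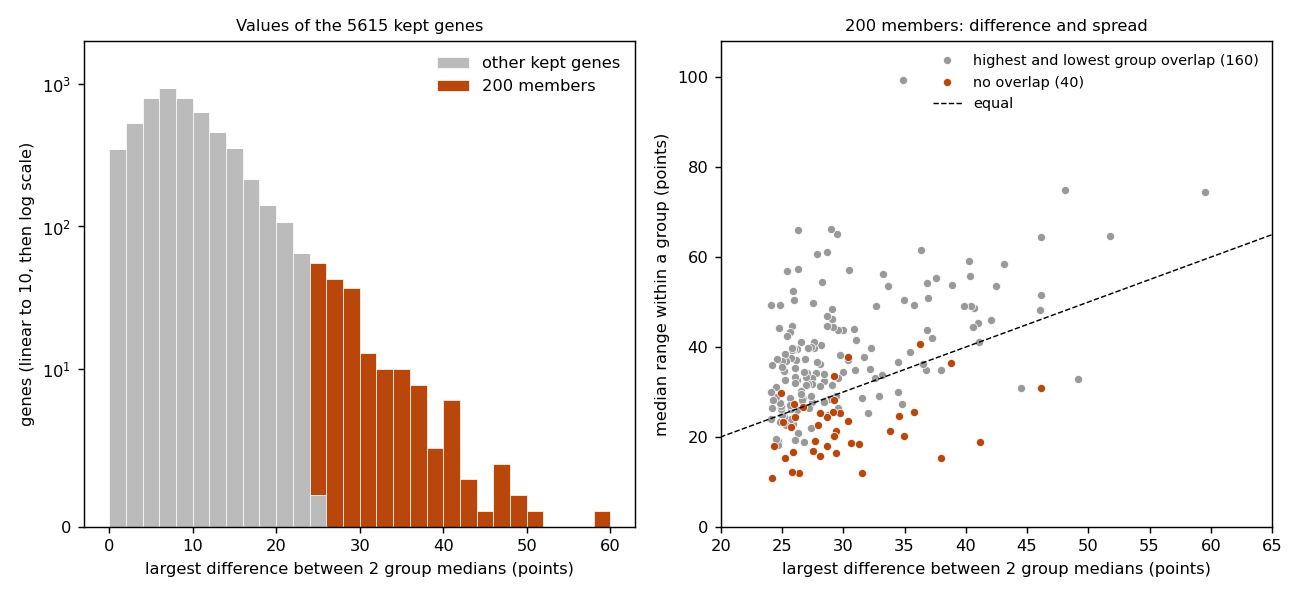
Left, number of genes (axis linear to 10, then log) by the largest difference between 2 group medians, in bins of 2 points; the 200 members are the right tail, from 24.1 to 59.6 points. Right, for each member, that difference against the median over the 4 groups of the range from the lowest to the highest mouse; the dashed line marks equality, and the 40 members whose highest and lowest groups did not overlap lie mostly under it.

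Only 4 members are named by their identifiers, the 2 of highest value whose shifting transcript had a higher mean share in the KO groups and the 2 where it was lower. The member of rank 1, MGP_C57BL6NJ_G0020350, has 3 transcripts, and the shift lay between one of 1556 bases and one of 1564 bases. The share of the 1556-base transcript had a median of 75.5% in WT mice on minimal magnesium (47.1% to 99.97%) and 98.2% in WT mice on high magnesium (60.1% to 99.9985%). In KO mice it was 38.6% on minimal (0.506% to 96.8%) and 92.1% on high magnesium (0.0413% to 99.9%). In some mice almost all of the estimated TPM fell to one of the 2 transcripts, others lay between, and all 4 groups overlapped.

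MGP_C57BL6NJ_G0030234, of rank 3, showed the same kind of pair, 8312 against 8323 bases. Its 8312-base transcript had a median share of 51.0% in WT mice on high magnesium, where 3 mice lay between 72.7% and 77.1% and the other 3 between 0.120% and 29.2%. The medians were 14.8% in WT on minimal (0.0470% to 32.0%), 16.1% in KO on minimal (9.75% to 19.7%) and 1.80% in KO on high magnesium (0.00235% to 34.0%). The groups overlapped here as well.

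MGP_C57BL6NJ_G0029546, of rank 2, owed its value to a transcript of 194 bases. That transcript had a median of 0.749 assigned reads per mouse and an effective length (the length over which Salmon places fragments) of 9.25 bases, so a fraction of a read gave a large TPM. Its share was listed at 0 in 7 mice and reached 83.7% in 1 KO mouse on high magnesium. Group medians were 34.3% in WT on minimal, 22.8% in WT on high, 5.37% in KO on minimal and 57.2% in KO on high magnesium. Counted as a share of the gene's assigned reads, the largest difference between any 2 group medians was 0.405 points.

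MGP_C57BL6NJ_G0023108, of rank 5, turned on a transcript of 322 bases with a median of 4.56 reads. Its share in KO mice on high magnesium was 55.9% (26.8% to 62.1%), above every WT mouse on the same diet (median 9.77%, 0% to 16.3%). WT mice on minimal magnesium had a median of 18.5% (0% to 44.9%) and KO mice on minimal magnesium 22.3% (6.89% to 33.2%). As a share of reads the largest difference between any 2 group medians was 4.19 points. Thus of the 4 genes named by the rule, 2 turned on pairs of transcripts of nearly the same length and 2 on a short transcript with few reads.

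**Figure D2:**
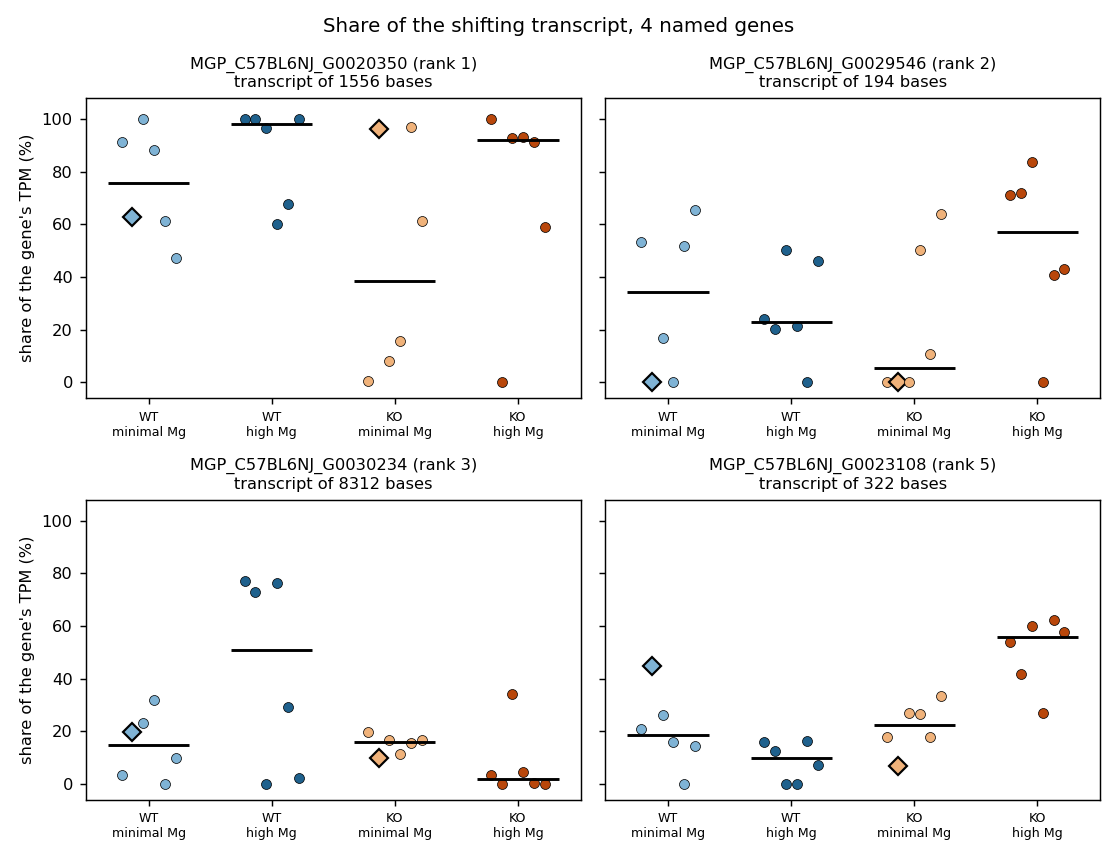
Share of the gene's TPM (%) held by the shifting transcript in each mouse, for the 4 genes named by identifier; lines are group medians, and diamonds are mice 4 and 20. Only for rank 5 do the highest and lowest groups (KO and WT on high magnesium) not overlap.

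KO mice on high magnesium held the highest or the lowest median in 152 of the 200 members (highest in 64, lowest in 88). This was also the most frequent end over all kept genes, at 67.1%. With mice 4 and 20 left out of the medians of the same 200 shifting transcripts, the group was at an end in 141 members, against 64.1% of all kept genes. In 169 members the highest and the lowest group were of different genotypes, which was so in 74.9% of all kept genes. Without mice 4 and 20 it was so in 170 members. The commonest pair of ends was KO and WT on high magnesium, in 79 members (39.5%, against 27.6% of all kept genes). KO was lower in 44 of them and higher in 35. Averaged over diets the shifting transcript was higher in KO in 90 members (45.0%) and lower in 110 (55.0%), against 44.1% and 55.3% of all kept genes.

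**Figure D3:**
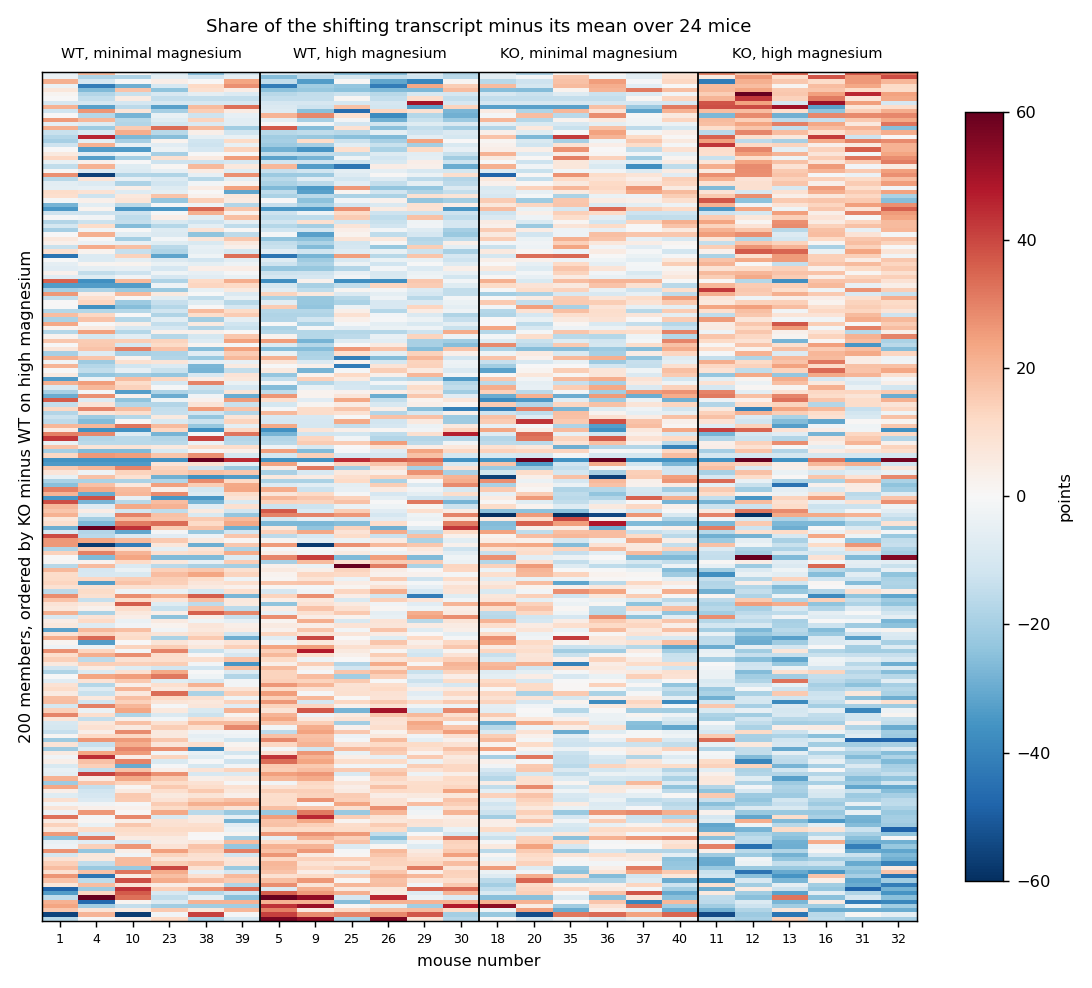
Share of the shifting transcript minus its mean over the 24 mice (colour, points), for the 200 members (rows, ordered by the KO minus WT difference on high magnesium) and 24 mice (columns, by group). The 6 KO mice on high magnesium stand apart at both ends of the order, which follows from the ordering. Single dark cells mark mice whose estimated share lay far from the mean, which need not be a switch in the mouse.

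On high magnesium the 2 genotypes differed by 20 points or more in 137 members, 62 with the higher share in KO and 75 with the lower. Over all kept genes, members included, they did so in 213 (3.79%). Within mice 1 to 18 and within mice 20 to 40 the difference had the same sign as the pooled one in 133 of the 137, and it was 20 points or more in both series in 73. Of the 213 genes, 206 and 88 did so. These series share the mice that chose the members, so the agreement of sign is a description. On minimal magnesium, 99 of the 137 differed in the same direction, and 103 did so without mice 4 and 20. Of the 213 genes, 157 and 160 did so, and of the 76 that are not members, 58 and 57. This agreement is thus not particular to the members.

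Differential transcript usage was tested across all genes in 2 ways. edgeR's quasi-likelihood fit of the estimated counts called 742 of 9101 genes tested for KO against WT on high magnesium (8.15%), 56 of them among the 194 members tested, at a Benjamini-Hochberg adjusted p under 0.05. limma on the logit of the shares called 1027 of 5615 genes (18.3%), 77 of them among the 200 members, and 658 genes without KO mouse 32. The rule chose members on this contrast among others, so nothing is read from their share of calls. The edgeR test made false calls on simulated counts of genes without a difference, in numbers near those it called in the data for KO against WT on minimal magnesium, for the diet in WT mice and for the interaction. They were also a large part of its count for the diet in KO mice. Its counts in these comparisons, and of members in them, are therefore not read as differences. The limma test made few false calls on such counts, and both counts are printed throughout. The simulated counts were drawn for each transcript independently. They held no error in assigning reads between similar transcripts and no difference between the mouse series. They therefore cannot show how many false calls either test made in the data. With single libraries left out, edgeR called from 43 to 57 members for KO against WT on high magnesium and limma from 56 to 81. Over 12 versions of the usage test run on all 24 mice, the number of members called here ran from 17 to 113. Versions with another scaling, another filter or a term for the series are not among the 12.

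The highest and the lowest group of a member did not overlap in 40 members, against 6.82% of all kept genes, and KO on high magnesium was an end in 39 of the 40. Without mice 4 and 20 the number was 52, against 10.3% of all kept genes. Both tests called 49 members for KO against WT on high magnesium, and 408 of the 5459 genes tested by both (7.47%). Among the 49 members, 23 had ends that did not overlap (132 genes, or 2.42%, over all genes tested by both). Of the 23, 18 had a median of at least 100 reads on the shifting transcript (103 genes, or 1.89%). The members were chosen in part on this contrast, so nothing is read from these counts. The 8 of highest value are described mouse by mouse; this selection was made after the values had been seen.

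The member of rank 24 has 2 transcripts, of 2324 and 2192 bases. The longer one held 44.1% of the gene's TPM in the median KO mouse on high magnesium (34.9% to 82.5%). In the other 3 groups it held 6.13% (WT on high, 3.12% to 10.3%), 10.9% (WT on minimal, 2.10% to 21.6%) and 10.8% (KO on minimal, 6.96% to 18.2%). All 6 KO mice on high magnesium lay above the other 18 mice. The gene's total was also lowest in that group, at a median of 11.6 TPM against 39.6 in WT on the same diet.

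At rank 57 stands the longest shifting transcript of the 200, 15639 bases against a partner of 14846. Its share was 47.5% in KO mice on high magnesium (30.5% to 56.0%). It was 16.0% in WT on high (12.4% to 24.4%), 15.9% in WT on minimal (6.49% to 18.6%) and 18.5% in KO on minimal magnesium (14.5% to 21.3%). Again every KO mouse on high magnesium lay above the other 18. With a median of 1495 reads per mouse this transcript was among the better measured, and the gene's total was 12.4 TPM in that group against 40.8 in WT on high magnesium.

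Rank 157 had the most reads on its shifting transcript, a median of 7255 per mouse, and 2 transcripts of 1886 and 1794 bases. Here the longer one held less in KO mice on high magnesium, 43.2% (34.1% to 49.3%). Its share was 64.2% in WT on high (62.9% to 67.3%), 61.8% in WT on minimal (51.4% to 66.1%) and 69.0% in KO on minimal magnesium (62.2% to 71.9%). The 6 KO mice on high magnesium lay below the other 18. The gene's median total was 162 TPM in that group, 602 in KO mice on minimal magnesium and 335 in WT on high magnesium.

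KO mice on high magnesium stood wholly outside the range of the other 18 mice in 5 members, above it in 4 and below it in 1, and in 0.392% of all kept genes. The other 2 of the 5 were of ranks 90 and 104, with transcripts of 431 and 405 bases. At rank 90 the share was 29.2% (19.7% to 43.5%) in that group, and the highest of the other 18 mice was at 19.3%. At rank 104 it was 37.2% (24.4% to 46.9%), and the highest other mouse was at 24.3%. The gaps were thus under a point in both. In no member did another group stand outside the rest; over all kept genes this was so in 0% for WT on minimal, 0.0178% for WT on high and 0% for KO on minimal magnesium.

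In the other 6 of the 8 members described, the shifting transcript was lower in KO mice on high magnesium. At rank 39 (1923 bases) its share was 54.2% there (46.4% to 74.1%) and 89.1% in WT on high (85.3% to 90.3%). WT mice on minimal magnesium had 84.4% (82.3% to 95.0%) and KO mice on minimal magnesium 78.8% (51.6% to 86.3%). Mouse 4 was the lowest of these WT mice and mouse 20 the highest of these KO mice. KO mouse 40 on minimal magnesium, at 51.6%, lay within the range of the KO mice on high magnesium.

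At rank 70 the pair was 3602 and 3686 bases, and the gene's total differed by no more than 1.29-fold between groups. The 3602-base transcript held 21.1% in KO on high (14.2% to 26.8%) and 50.8% in WT on high magnesium (40.3% to 65.1%). On minimal magnesium it held 29.6% in KO (22.9% to 51.7%) and 50.04% in WT (29.7% to 55.6%). The library labelled WT that was lowest, at 29.7%, was mouse 4, and the library labelled KO that was highest, at 51.7%, was mouse 20. Without these 2 libraries the genotypes did not overlap on either diet. These are the 2 libraries that overlapped, and they were singled out for such shares, so nothing is read from this.

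Rank 62 gave a similar picture with transcripts of 2670 and 745 bases. The longer one held 23.1% in KO on high (15.1% to 31.6%) and 53.8% in WT on high magnesium (35.7% to 68.1%). KO mice on minimal magnesium, at 34.8% (25.9% to 46.7%), lay between these and WT mice on minimal magnesium, at 47.8% (42.9% to 54.5%). The KO mouse at 46.7% was mouse 20. The gene's total differed by 1.22-fold at most.

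At ranks 58, 75 and 78 a long transcript held less, and a much shorter partner (1048, 914 and 852 bases) more, in KO mice on high magnesium. The 3468-base transcript of rank 58 held 63.6% in KO on high (51.3% to 79.8%) and 94.9% in WT on high magnesium (89.3% to 100%). The 6156-base transcript of rank 75 held 46.6% (37.5% to 54.1%) and 76.1% (68.2% to 87.2%). The 3642-base transcript of rank 78 held 52.9% (42.3% to 61.9%) and 78.2% (68.0% to 91.4%). Genotypes on high magnesium did not overlap in any of the 3, which at ranks 58 and 75 follows from the choice of members without overlap. On minimal magnesium they did: the transcript of rank 58 held 81.2% in KO (73.5% to 87.3%) and 92.2% in WT (75.8% to 98.8%). That of rank 75 held 61.4% (47.3% to 70.9%) and 69.1% (50.9% to 78.7%), and that of rank 78 held 76.3% (61.0% to 80.8%) and 82.1% (69.1% to 89.6%). As shares of assigned reads, which are not divided by length, the largest differences between any 2 group medians were 9.36, 8.05 and 10.2 points.

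**Figure D4:**
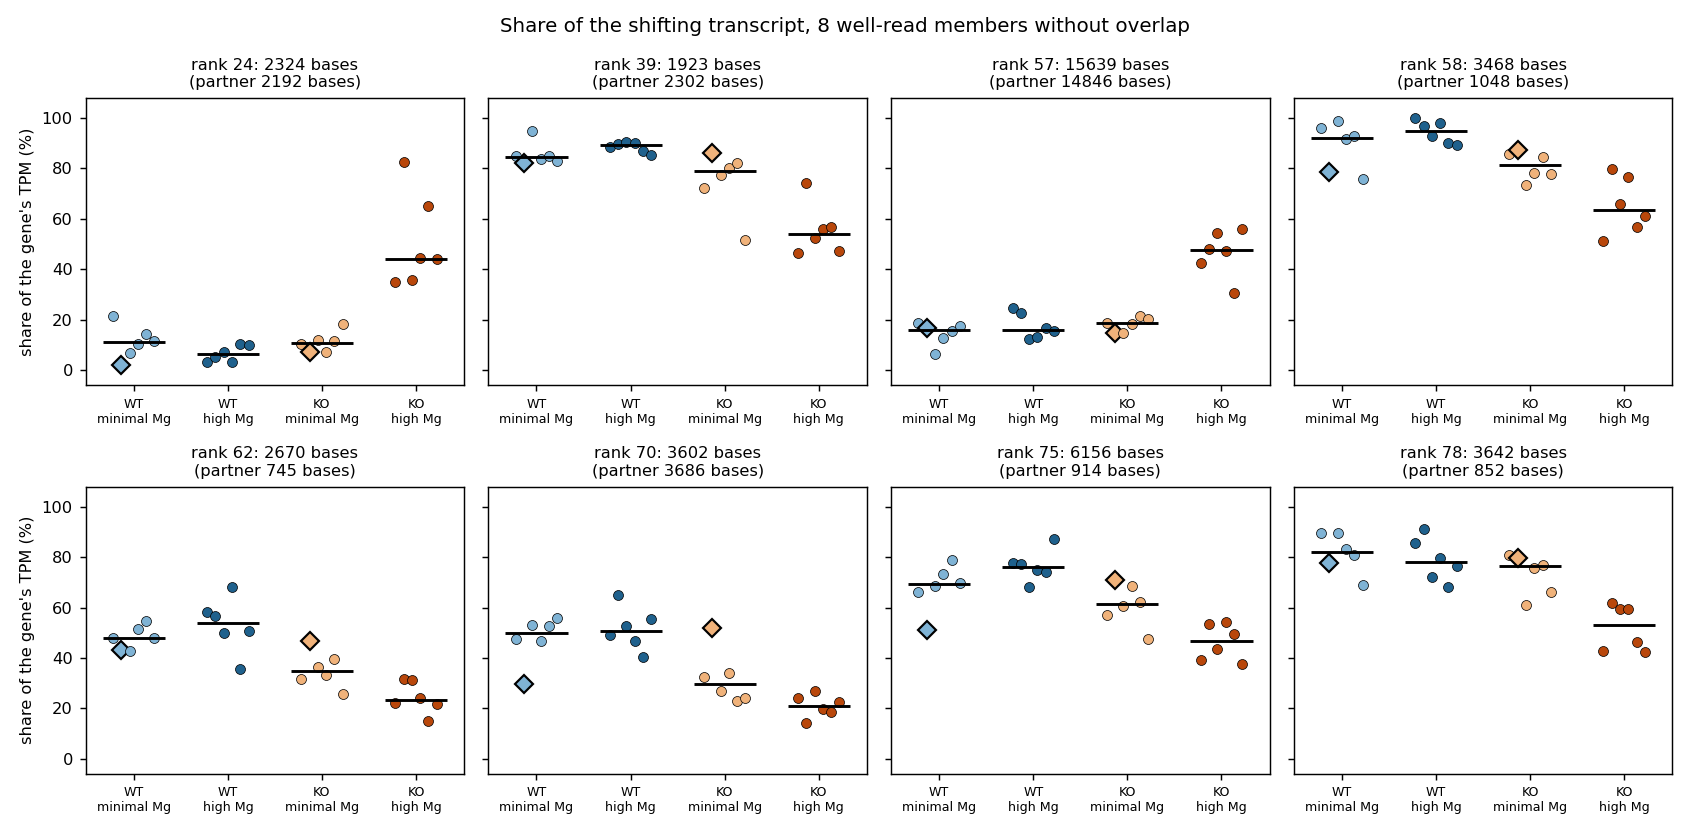
Share of the gene's TPM (%) held by the shifting transcript in each mouse, for 8 members with at least 100 reads on it, called by both tests for KO against WT on high magnesium and without overlap of their end groups; lines are medians, and diamonds are mice 4 and 20. The transcript is higher in KO on high magnesium at ranks 24 and 57 and lower in the other 6.

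On minimal magnesium the genotypes differed by 20 points or more in 45 members, and in 60 without mice 4 and 20. Among all kept genes, members included, they did so in 73 (1.30%), and in 125 (2.23%) without these mice. edgeR called 84 of 9101 genes (0.923%) for this comparison, 4 of them members (1 without mouse 1 or 10, 2 without mouse 18, 36, 39 or 40, 7 without mouse 20 and 9 without mouse 4), and limma on the shares called 1 of 5615 (0.0178%), with 0 members under any library left out. The edgeR count is near its number of false calls on simulated counts. At an unadjusted p under 0.05 edgeR had 581 genes and limma 554. Without mice 4 and 20 edgeR called 286 of 9200 genes (3.11%), 17 of them members, and limma 140 of 5615 (2.49%), 13 of them members. Leaving out single libraries, edgeR called 182 genes without mouse 4, 142 without mouse 20 and 130 without mouse 39, and limma 7 without mouse 4 and 26 without mouse 20 (3 without mouse 5, and 2 without mouse 13, 23 or 38). Mice 4 and 20 were singled out because they often lay nearer the other genotype, so a higher count without them follows in part from that choice.

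Each mouse on minimal magnesium was set against the medians of the 2 genotypes, taken without itself and without mice 4 and 20, over the members where these medians lay 20 points or more apart. Mouse 20 was nearer the other genotype in 38 of 60 such members (63.3%) and mouse 4 in 32 of 60 (53.3%). The other 10 mice were nearer the other genotype in 19.7% to 42.2% of theirs, the highest being mouse 39. Mouse 4 thus lay about as often nearer one genotype as the other. Mice 4 and 20 were picked for this trait and left out of the medians, so their higher shares follow in part from that choice. These counts cover the members only. Mouse 4 also had the largest median distance from its own group of all mice, 15.6 points (median mouse 9.47, mouse 20 12.0). Kept genes held the lowest share of TPM in mouse 4, 51.2% (median mouse 56.9%, mouse 20 59.1%). Its library held 10021679 reads, against a median of 13746000 and 17833323 in mouse 20. Whether the place of mouse 4 came from its label or its library was not tested. The member of rank 12, with a 1675-base transcript among 14, was picked for the shares of mice 4 and 20 after these had been seen. Its share was between 52.0% and 74.9% in 5 WT mice and 20.7% in mouse 4, and between 6.29% and 28.5% in 5 KO mice and 70.9% in mouse 20. On high magnesium it was 49.9% in WT (37.1% to 62.3%) and 12.0% in KO (1.37% to 39.4%).

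**Figure D5:**
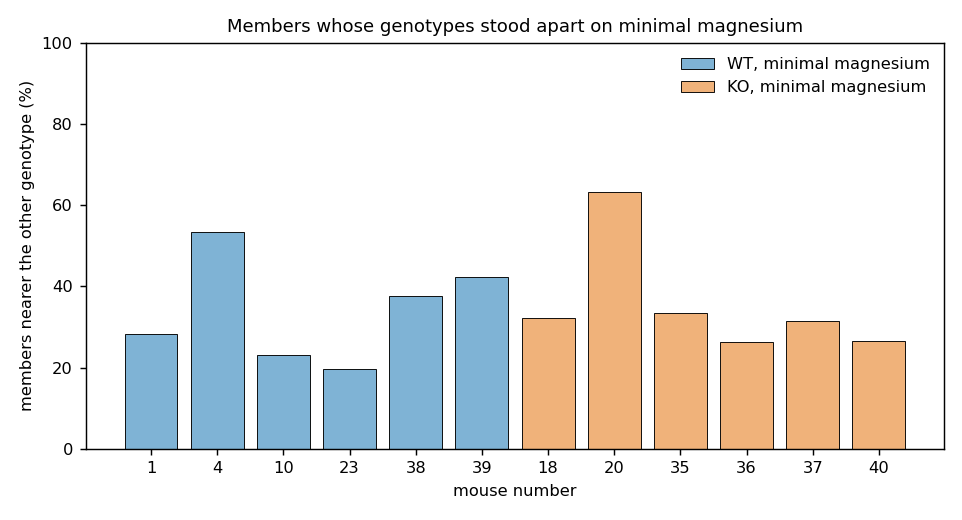
Share of members (%) in which a mouse on minimal magnesium lay nearer the median of the other genotype, among members whose genotype medians, taken without that mouse and without mice 4 and 20, stood 20 points or more apart (49 to 64 members per mouse). Mice 4 and 20 are the only ones above 50%. They were picked for this trait and left out of the medians, so this follows in part from that choice.

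Between diets, KO mice differed by 20 points or more in 64 members, with the higher share on high magnesium in 23 (28 of 64 without mice 4 and 20). WT mice did so in 45 members, with the higher share on high magnesium in 20 (20 of 43 without these mice). Over all kept genes, members included, KO mice did so in 91 (1.62%) and WT mice in 55 (0.980%). Without mice 4 and 20 these were 112 (1.99%) and 72 (1.28%). Both genotypes did so in 12 members and in 0 of the other kept genes, in the same direction in 6 of the 12. The rule chose members on these medians, so the counts are a description. For high against minimal magnesium in KO, edgeR called 135 of 9101 genes (1.48%), 6 of them members (4 to 9 with single libraries left out), and limma 38 of 5615 (0.677%), 8 of them members. The 8 became 3 without mouse 13, 32, 36 or 37, 4 without mouse 12, 18 or 20 and 5 without mouse 23 or 30, and 12 at most. The limma count was 25, 22, 18, 20 and 67 without mouse 20, 32, 36, 37 and 40 in turn. In WT mice edgeR called 38 genes (0.418%) and limma 0 (0%), with 0 members in either (0 to 1 by edgeR with single libraries left out). This edgeR count, too, is no higher than its false calls on simulated counts. The edgeR count was 61 without mouse 1 and 71 without mouse 39. At an unadjusted p under 0.05 edgeR had 431 genes there and limma 223.

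The difference between genotypes in the diet effect, an interaction term, was called in 97 of 9101 genes by edgeR (1.07%), 4 of them members (3 to 7 with single libraries left out, 7 without mouse 13 or 31), and in 6 of 5615 by limma (0.107%), 2 of them members (1 to 3). The edgeR count is again near its false calls on simulated counts. The limma count was 10 without mouse 16, 2 without mouse 18 or 39, and 3 without mouse 1, 5, 9, 25, 26, 36 or 40. The member of rank 23 owed its value to the 2 KO groups, so its difference between diets is a description of what chose it. Its 4071-base transcript had a share of 65.8% in KO on high (49.0% to 84.7%) and 27.1% in KO on minimal magnesium (14.4% to 48.9%), and the 2 KO groups lay just apart. In WT mice it was 56.99% on high (38.1% to 75.4%) and 52.3% on minimal magnesium (28.0% to 88.7%).

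The spread among mice of a group was wide beside these differences. The range from the lowest to the highest mouse, taken as the median over the 4 groups, was wider than the value itself in 133 of the 200 members, and in 90.2% of all kept genes. It had a median of 33.8 points over the members and 14.3 over the other kept genes. At least 1 group had a range wider than the value in 177 members, and in 98.4% of all kept genes.

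Where the members' transcripts are short or thinly read, the shares rest on few reads. The shifting transcript was under 300 bases in 33 members (16.5%), against 7.11% of all kept genes. It had fewer than 10 reads in the median mouse in 50 members (25.0%, against 9.63% of all kept genes). It was listed at 0 in at least 1 mouse in 75 (37.5%, against 20.7%). When shares were taken over assigned reads, which are not divided by length, the largest difference between group medians was under 5 points in 65 members. This was so in 59.4% of all kept genes. In 32 of the 65 the shifting transcript was under 300 bases. The member of rank 10 is the extreme: a transcript of 86 bases with a median of 0.0759 reads, whose share was 43.1% in WT mice on high magnesium (0% to 72.4%) and 0% in WT mice on minimal magnesium (0% to 44.6%).

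A second kind of member is a pair of transcripts of nearly the same length. The shifting transcript and its partner were within 50 bases of each other in 42 members (21.0%), against 9.60% of all kept genes, and ranks 1 and 3 are of this kind. One partner took 80% or more of the change in 68 members (34.0%), much as in all kept genes (35.0%). The shifting transcript was the longer of the pair in 87 (43.5%, against 47.8% of all kept genes). Where the partner was the longer, it was taken to move opposite to the shifting transcript, and its own difference was not measured. On this reading the longer one was higher in KO, averaged over diets, in 95 (47.5%, against 43.6%). The longer transcript was lower in KO in the other 105 (52.5%, against 55.9%).

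The members were not the most abundant genes. Their median summed level was 17.3 TPM, against 30.9 in the other kept genes. In 104 of the 200 members the group medians of the gene's total stayed within 1.5-fold of each other, against 58.5% of all kept genes. In 38 members these medians differed by more than 2-fold, against 15.2% of all kept genes. The members had a median of 5 transcripts and the other kept genes 6, and 34 members had only 2 (17.0%, against 12.2% of all kept genes).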

How the data were processed

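Thoracic aorta RNA of 24 mice was quantified by the authors with Salmon (build mm10, per the submitters' processing notes, which also name FastQC; versions are not given in the sources used here). The deposited tables hold TPM and estimated counts of reads per transcript with its length, per the file headers, for 102919 transcripts. Shares were computed from TPM. The 200 members, the 4 genes named and the tests were chosen with earlier results of these data known.

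Usage was tested with edgeR 4.0.16 on R 4.3.3 (estimated counts rounded, filterByExpr, TMM, quasi-likelihood fit of 4 group means, diffSpliceDGE) and with limma 3.58.1 on the logit of the shares (0.01 added, Simes over the transcripts of a gene), with Benjamini-Hochberg adjustment over all genes. The edgeR test was the planned one. Tested on simulated data it made false calls in genes without differences, about as many as it called in the data on minimal magnesium, between diets in WT mice and for the interaction, so the limma test, planned as an alternative, is given beside it. That choice was made after 8 further edgeR versions had been run on simulated and real counts and their calls had been seen; all are given under the processing alternatives. The tests share control mice between comparisons. Group, mouse series and depth are in part confounded.

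Genes are named by a fixed rule: with no symbols, the identifiers of the 2 members of highest value with a higher and of the 2 with a lower share in KO. All other members described were picked after their values had been seen. Reads assigned to transcripts that share sequence are a model's estimate, so shares carry an error that the tables do not give. Figures were drawn with matplotlib 3.10.9.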

Additional observations from a re-analysis of the deposited data

Results flagged for a closer look

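In the 18 members described mouse by mouse, and in 2 measures per library, 80 groups of 6 mice were checked for a mouse far from its group; chance flags about 1 in 20 such groups. In 6 of them a share stood apart. At rank 3, KO mouse 13 on high magnesium stood at 34.0% while the other 5 lay between 0.00235% and 4.46%. At rank 10, WT mouse 1 on minimal magnesium stood at 44.6% and the others between 0% and 6.55%. The library labelled KO of mouse 20 stood at 70.9% at rank 12, a member picked for this mouse and mouse 4, with the others between 6.29% and 28.5%. At rank 39, WT mouse 10 on minimal magnesium was at 95.0%, with the others between 82.3% and 85.1%. The library labelled WT of mouse 4 was at 29.7% at rank 70, with the others between 46.8% and 55.6%. At rank 90, WT mouse 29 on high magnesium was at 16.6%, with the others between 0% and 3.42%. Mice 4 and 20 each account for 1 of these.

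A diet effect on transcript usage that differs between genotypes, an interaction term, was called in 4 members with edgeR (97 of 9101 genes, 1.07%). Limma on the shares called it in 2 (6 of 5615, 0.107%). With single libraries left out these were 3 to 7 and 1 to 3 members. The edgeR count over all genes is near its number of false calls on simulated counts, so its 4 members are not read as differences. The members were chosen on the same group medians, so nothing is read from the number of members limma called either.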

How the results depend on the processing

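In this part, 5 counts stand in the order KO against WT on minimal magnesium, KO against WT on high magnesium, high against minimal magnesium in KO, the same in WT, and the interaction. With all mice, edgeR called 84, 742, 135, 38 and 97 genes and limma on the shares 1, 1027, 38, 0 and 6. RLE scaling kept every edgeR count within 1.5-fold. Without the filter edgeR called 236, 1111, 328, 116 and 315, and with a stricter filter 3, 530, 65, 7 and 31. Simes over transcripts gave 111, 273, 102, 71 and 106, and limma-voom 34, 902, 145, 5 and 58. Leaving out mice 4 and 20 gave 286, 809, 136, 45 and 111 by edgeR and 140, 1184, 37, 0 and 7 by limma on the shares. Mice 20 to 40 alone gave 152, 635, 219, 33 and 195 by edgeR and 7, 451, 134, 6 and 58 by limma; mice 1 to 18 alone, with 1 KO mouse on minimal magnesium assumed to vary like the rest, gave 50, 154, 39, 44 and 27 and 88, 44, 82, 26 and 70. A term for the series gave 67, 977, 156, 40 and 116 by edgeR and 1, 1325, 35, 0 and 5 by limma.

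The versions below were added after seeing the data. Tagwise dispersions gave 60, 1176, 166, 16 and 58 (with Simes 24, 683, 87, 10 and 27), the same without the robust option. A likelihood ratio fit gave 45, 1105, 149, 15 and 48 (with Simes as for tagwise dispersions). Bias-adjusted quasi-likelihood gave 147, 1906, 419, 31 and 167 (with Simes 130, 1197, 294, 52 and 153). The limma counts with mice left out or a series term were also added.

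Leaving out each mouse in turn, edgeR called from 65 to 182, 573 to 822, 112 to 173, 32 to 71 and 96 to 143 genes, and limma 1 to 26, 658 to 1164, 18 to 67, 0 to 0 and 2 to 10. Between 166 and 187 of the 200 members stayed, and the last value ran from 23.9 to 25.3 points.

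The choice of members depended on the rule. A minimum of 1 TPM kept 46 of the 200 (last value 33.4 points) and one of 10 TPM 86 (18.7). Shares of estimated counts kept 90 (26.0), mice 20 to 40 alone 82 (30.5), group means 143 (21.3), pooled shares 138 (21.0), 1 TPM added to each transcript 151 (19.2), transcripts of 300 bases or more 160 (23.3), and leaving out mice 4 and 20 168 (25.2). The cause of these moves was not tested. No paired analysis was possible because the labels give no replicate numbers that groups share. In 50 members the shifting transcript had under 10 reads in the median mouse, so their shares rest on few reads.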
